A study of Mus musculus with 6 samples.

Results

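The genes described here are the 10 core genes of the small RNA pathways of the oocyte: the Microprocessor genes Drosha and Dgcr8, the processing nuclease gene Dicer1, the Argonaute genes Ago1, Ago2, Ago3 and Ago4, the PIWI genes Piwil1 and Piwil2, and the piRNA helicase gene Mov10l1. They were taken by gene symbol, as 10 of the 17577 genes listed in every library, and all 10 were found. Transcripts were measured by Smart-seq2 in germinal vesicle (GV) oocytes, the fully grown oocytes before meiosis resumes, of C57BL/6 J mice aged 12 weeks. A group of 3 libraries came from Bnc1tr/tr mice, which are homozygous in every cell for a frameshift allele that truncates the zinc finger protein basonuclin 1, and a group of 3 came from wild-type (WT) mice. The study's methods describe stimulation of the mice with pregnant mare serum gonadotropin and cDNA made from 1 oocyte per library. The study names its samples biological replicates and its comparisons as made among littermates, and no source used here ties a library to an animal or litter.

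In the nucleus, the ribonuclease DROSHA and its RNA-binding partner DGCR8 cut microRNA hairpins out of primary transcripts. In the cytoplasm, DICER1 trims these hairpins to mature microRNAs and also cuts long double-stranded RNA to short interfering RNAs, and the products are loaded into Argonaute proteins, of which AGO2 is the one known for slicing perfectly paired targets. Mouse oocytes are known for an active endogenous short interfering RNA (endo-siRNA) pathway that needs DICER1 and AGO2 and for weak microRNA activity. Much of their Dicer1 transcript is known to start at an MT-C retrotransposon inside an intron and to encode a shorter DICER1. PIWI proteins carry a separate class, the piRNAs, which silence transposons in the germline and are made without DICER1. The libraries hold polyadenylated RNA, so none of the small RNAs themselves was measured.

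Dicer1, Dgcr8 and Ago4, the 3 members higher in Bnc1tr/tr oocytes by the test given below, are shown with their upstream sequence, together with Ago3, the chromosomal neighbour of Ago4 and the most abundant Argonaute gene. Each sequence is the 250 bases before a transcript start in the RefSeq promoter table of GRCm38.p6, 5′ to 3′ on the strand of the gene, which is the minus strand for all 4. Capitals mark the GC box (GGGCGG, or CCGCCC on the other strand) and the CCAAT box (CCAAT, or ATTGG on the other strand). The positions are chr12:104751953-104752202 for Dicer1, chr16:18289169-18289418 for Dgcr8, chr4:126533459-126533708 for Ago4 and chr4:126429543-126429792 for Ago3.
Dicer1: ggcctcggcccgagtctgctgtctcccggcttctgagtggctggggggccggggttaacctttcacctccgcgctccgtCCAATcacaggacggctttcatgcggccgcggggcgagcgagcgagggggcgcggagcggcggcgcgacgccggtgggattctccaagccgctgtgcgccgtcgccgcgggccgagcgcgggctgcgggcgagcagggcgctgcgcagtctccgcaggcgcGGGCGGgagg
Dgcr8: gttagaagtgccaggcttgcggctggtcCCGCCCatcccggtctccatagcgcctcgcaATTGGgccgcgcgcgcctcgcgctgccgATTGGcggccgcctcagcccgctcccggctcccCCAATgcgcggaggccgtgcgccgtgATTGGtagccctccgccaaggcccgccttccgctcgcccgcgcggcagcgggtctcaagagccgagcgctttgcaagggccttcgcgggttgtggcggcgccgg
Ago4: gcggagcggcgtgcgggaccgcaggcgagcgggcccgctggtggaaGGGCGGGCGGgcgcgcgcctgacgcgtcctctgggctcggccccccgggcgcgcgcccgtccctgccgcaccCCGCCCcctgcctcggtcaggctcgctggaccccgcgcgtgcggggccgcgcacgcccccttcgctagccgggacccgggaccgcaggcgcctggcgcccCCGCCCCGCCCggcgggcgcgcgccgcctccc
Ago3: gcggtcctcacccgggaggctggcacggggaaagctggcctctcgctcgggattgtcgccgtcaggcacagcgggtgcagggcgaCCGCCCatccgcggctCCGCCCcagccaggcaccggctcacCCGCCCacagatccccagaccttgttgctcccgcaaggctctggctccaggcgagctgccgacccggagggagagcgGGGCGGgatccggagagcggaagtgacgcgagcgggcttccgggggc
The gene spans given below reach further upstream than these starts, so that the Ago3 window lies wholly inside its gene span and the other 3 windows overlap theirs in part. The Ago4 window held 5 GC boxes and no CCAAT box, with matches that overlap each other counted separately, and the Ago3 window held 4 GC boxes. The Dgcr8 window held 4 CCAAT boxes and 1 GC box, and the Dicer1 window held 1 of each. A GC box occurs in 32.7% and a CCAAT box in 33.8% of the 32851 RefSeq windows of this length, which belong to genes of every type. The CpG dinucleotide occurred 39 times in the Dicer1 window, 36 times in Dgcr8, 46 times in Ago4 and 27 times in Ago3, against a median of 6 over all windows. Neither the TATA box (TATAAA, in 12.4% of windows on either strand) nor the element bound by the oocyte factor NOBOX (TAATTG, in 7.17%) occurred in the windows of the 8 members found in the promoter table. The Dicer1 window lies before this annotated start and not at the intronic start known from oocytes, and FPKM per gene does not separate transcripts from these starts. A match of letters is a description and not a site.

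The Dgcr8 transcript carries a microRNA hairpin of its own. The gene of miR-1306 lies at chr16:18284239-18284317 on the minus strand, inside a coding exon of Dgcr8, the second exon of the transcript whose coding part spans bases 18283697 to 18284416. Its hairpin is shown with the 5p and 3p mature sequences in capitals.
Mir1306 hairpin: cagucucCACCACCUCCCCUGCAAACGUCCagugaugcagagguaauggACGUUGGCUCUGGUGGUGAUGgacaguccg
Background knowledge holds that the Microprocessor cuts its own Dgcr8 transcript at hairpins near the start of the message.

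Levels are given as FPKM, the fragments per kilobase of transcript and per mega (M) mapped fragments, so that they can be set side by side between genes. In WT oocytes Ago3 and Dicer1 were the most abundant members, with means of 42.2 ± 6.91 and 37.1 ± 2.53 FPKM (SD, n = 3 each) and overlapping ranges. They ranked 2351 and 2531 among the 17577 genes. Drosha followed at 7.20 ± 1.43 FPKM, below every Dicer1 value, and then Ago2 at 2.87 ± 0.206, below every Drosha value. Mov10l1 at 2.04 ± 1.15, Dgcr8 at 1.89 ± 0.552, Piwil1 at 1.30 ± 0.498 and Ago4 at 0.703 ± 0.110 FPKM came next, and each overlapped its neighbour in this order. Piwil2 at 0.0700 ± 0.0300 and Ago1 at 0.0200 ± 0.0200 FPKM were at the bottom, below every Ago4 value. The mean of Ago3 was 14.7 times that of Ago2 in WT and 14.1 times in Bnc1tr/tr oocytes. The mean of Drosha was 3.82 times that of Dgcr8 in WT and 1.36 times in Bnc1tr/tr.

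**Figure D1:**
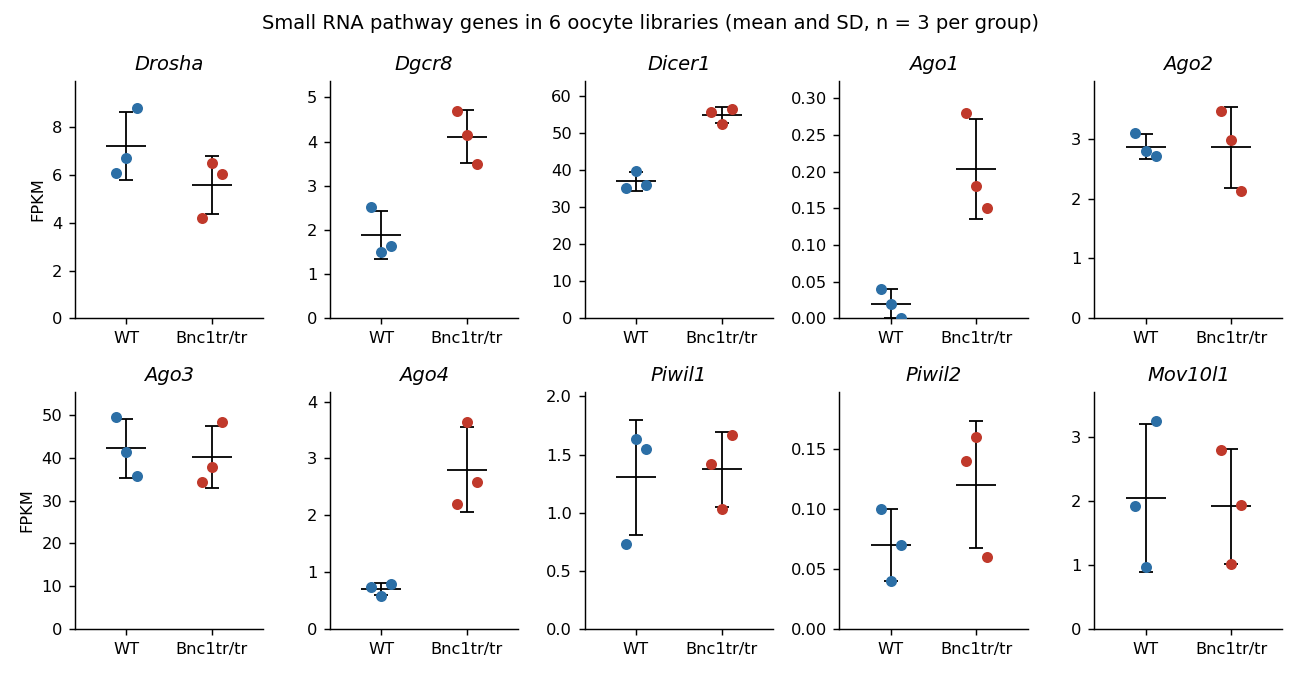
FPKM of the 10 members in each library, on a linear axis from 0 that differs between panels; points are the 3 libraries of a group, and the horizontal line and bar are the mean and SD. Dicer1, Dgcr8, Ago4 and Ago1 are higher in every Bnc1tr/tr library (red) than in every WT library (blue), and the other 6 genes overlap.

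In Bnc1tr/tr oocytes Dicer1 and Ago3 no longer overlapped. Dicer1 led at 55.1 ± 2.13 FPKM (SD, n = 3), above every value of Ago3, whose mean was 40.2 ± 7.18. Drosha at 5.58 ± 1.22 and Dgcr8 at 4.11 ± 0.60 FPKM now overlapped, and Dgcr8 stood above every Ago2 value. Ago2 at 2.85 ± 0.679, Ago4 at 2.80 ± 0.750, Mov10l1 at 1.92 ± 0.895 and Piwil1 at 1.37 ± 0.323 FPKM overlapped each with the next. Ago1 at 0.203 ± 0.0681 and Piwil2 at 0.120 ± 0.0529 FPKM were the lowest again and overlapped.

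Whether the genotypes differed was tested by limma on log2(FPKM + 1) over the 10560 genes whose mean reached 1 FPKM, and a gene was called changed at a Benjamini-Hochberg adjusted p under 0.05 with an absolute log2 fold change over 0.5. Of the 10 members 8 passed the filter on low values, and 3 of these (37.5%) were called, all higher in Bnc1tr/tr. Among all tested genes 31.8% were called, 24.1% higher and 7.68% lower, so the share of members called is near the background. Ago4 passed the filter only through the Bnc1tr/tr libraries, so the counts and the median over the tested members support nothing by themselves. The ranges of the groups were apart for 3 of these 8 members, against 46.8% of all tested genes. The median log2 fold change was 0.02 over the 8 members and 0.15 over all tested genes, and after median-ratio scaling the median over all genes was -0.02. The changes relative to the median of all genes were 1.0 for Ago4, 0.69 for Dgcr8 and 0.42 for Dicer1. Because the values are relative within a library, a gene that changed and an oocyte whose total RNA changed cannot be told apart.

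Among the processing genes, Dgcr8 rose and Drosha did not pass the test. Dgcr8 (NCBI Gene ID 94223, chr16:18253948-18289251) had 4.70, 4.14 and 3.50 FPKM in Bnc1tr/tr libraries 1 to 3 and 2.52, 1.51 and 1.63 in the WT libraries. Every Bnc1tr/tr value was above every WT value, with the nearest pair formed by Bnc1tr/tr library 3 and WT library 1. The log2 fold change was 0.83 with a standard error of 0.19 (95% interval 0.40 to 1.27, limma adjusted p = 0.010), a 2.18-fold higher mean. The call was lost after quantile normalization (0.41, limma adjusted p = 0.096) and without WT library 2 (0.74, limma adjusted p = 0.051). Exons of other genes overlap 17.1% of the Dgcr8 exons, among them those of Trmt2a, a tRNA methyltransferase gene on the opposite strand, whose reads cannot be told apart from those of Dgcr8 in a library without strand. Trmt2a itself had a log2 fold change of -0.20 (limma adjusted p = 0.54).

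Drosha (NCBI Gene ID 14000, chr15:12824804-12935291) had 4.20, 6.51 and 6.04 FPKM in Bnc1tr/tr and 6.09, 6.71 and 8.81 in WT libraries. Bnc1tr/tr library 1 was lowest and WT library 3 highest, and the groups overlapped. The log2 fold change was -0.32 (95% interval -0.79 to 0.15, limma adjusted p = 0.27). After quantile normalization it was -0.68 (limma adjusted p = 0.054), without a call. Within a library, the log2 ratio of Drosha over Dgcr8 (FPKM + 0.1) was -0.16, 0.64 and 0.77 in Bnc1tr/tr and 1.24, 2.08 and 2.36 in WT. The ratio was lower in every Bnc1tr/tr library, by a mean of -1.48 (exact two-sided permutation p = 0.10, the smallest that 3 against 3 allows, adjusted p = 0.133 over the 8 shares and ratios compared).

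Dicer1 (NCBI Gene ID 192119, chr12:104687740-104751968) had 55.91, 52.64 and 56.64 FPKM in Bnc1tr/tr and 35.27, 39.94 and 35.93 in WT libraries. The groups were separate, and the spread within each was small. The mean was 1.49-fold higher in Bnc1tr/tr, with a log2 fold change of 0.56 and a standard error of 0.15 (95% interval 0.21 to 0.91, limma adjusted p = 0.023). This value lies close to the fold threshold. The call was lost after upper-quartile scaling (0.42, limma adjusted p = 0.070), median-ratio scaling (0.38, limma adjusted p = 0.094) and quantile normalization (0.46, below the fold threshold), and without Bnc1tr/tr library 1 or 3 or WT library 1 or 2, while the log2 fold change stayed between 0.38 and 0.61 in all 17 alternatives. The log2 ratio of Dicer1 over Drosha was 3.7, 3.0 and 3.21 in Bnc1tr/tr and 2.51, 2.56 and 2.02 in WT, higher by a mean of 0.94 and separate between the groups (exact permutation p = 0.10, adjusted p = 0.133).

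**Figure D2:**
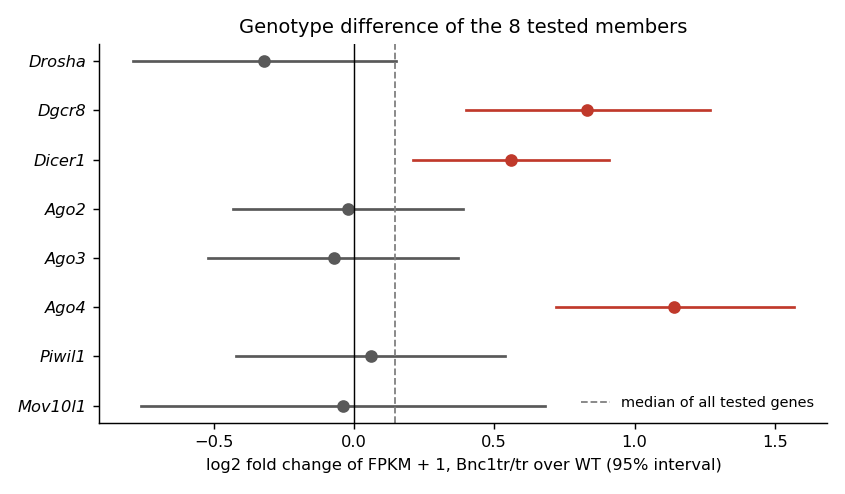
Log2 fold change of FPKM + 1, Bnc1tr/tr over WT, of the 8 tested members, with the limma 95% interval as a line; red marks the 3 called genes and the dashed line the median of all tested genes at 0.15. The intervals of Ago4, Dgcr8 and Dicer1 lie above 0, and those of the other 5 genes include 0.

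The Argonaute genes did not move alike. Ago4 (NCBI Gene ID 76850, chr4:126489487-126533586), which encodes an Argonaute without known efficient slicing, had 2.19, 3.64 and 2.58 FPKM in Bnc1tr/tr and 0.74, 0.58 and 0.79 in WT libraries. All WT libraries were below 1 FPKM and all Bnc1tr/tr libraries above 2. Its WT mean was under the filter of 1 FPKM, which it passed only through its Bnc1tr/tr values. The mean was 3.99-fold higher, with a log2 fold change of 1.14 and a standard error of 0.19 (95% interval 0.72 to 1.57, limma adjusted p = 0.0018, or 0.0058 without the filter). At the depths estimated below, these values stand for about 173 to 386 fragments in Bnc1tr/tr and 59 to 107 in WT on the longest annotated transcript. The call held in the alternatives that tested Ago4 except with Bnc1tr/tr library 3 alone against WT (1.07, limma adjusted p = 0.052), where the lone library is assumed to vary like WT.

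Ago3 (NCBI Gene ID 214150, chr4:126326994-126431670) had 34.43, 37.89 and 48.23 FPKM in Bnc1tr/tr and 49.55, 41.27 and 35.83 in WT libraries. The highest and the lowest values of both groups interleaved, and the log2 fold change was -0.07 (95% interval -0.52 to 0.37, limma adjusted p = 0.82). Ago2 (NCBI Gene ID 239528, chr15:73101625-73184947), the slicer gene, had 3.46, 2.98 and 2.12 FPKM in Bnc1tr/tr and 3.10, 2.79 and 2.71 in WT. Both the highest and the lowest value were in Bnc1tr/tr libraries, and the log2 fold change was -0.02 (95% interval -0.43 to 0.39, limma adjusted p = 0.95). After quantile normalization the Ago2 value was -0.45 (limma adjusted p = 0.061), without a call. The intervals of Ago3 and Ago2 end at 0.37 and 0.39, below the lower end of the Ago4 interval at 0.72.

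Ago1 (NCBI Gene ID 236511, chr4:126435012-126468707) had 0.28, 0.18 and 0.15 FPKM in Bnc1tr/tr and 0.04 and 0.02 in WT libraries 1 and 2, and was listed at 0 in WT library 3. The groups did not overlap, but the values stand for only about 18 to 25 fragments in Bnc1tr/tr and 0 to 4 in WT, and the mean was under the filter. Without the filter its log2 fold change was 0.24 (limma adjusted p = 0.085).

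Ago3, Ago1 and Ago4 lie side by side on the minus strand of chromosome 4, in this order by coordinate, with the sperm flagellum gene Tekt2 before and the checkpoint gene Clspn after them. Tekt2 had 74.74, 65.54 and 59.09 FPKM in Bnc1tr/tr and 9.07, 15.37 and 6.00 in WT libraries. Clspn had 15.23, 12.34 and 13.50 FPKM in Bnc1tr/tr and 12.62, 11.86 and 8.18 in WT. Along this stretch Tekt2, Ago1 and Ago4 were higher in every Bnc1tr/tr library, and Ago3 and Clspn overlapped between the groups. These neighbours were named after their values were seen.

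The sum of the 4 Argonaute genes was 46.0 ± 6.47 FPKM in Bnc1tr/tr against 45.8 ± 7.12 in the WT group (SD over 3 libraries each, exact two-sided permutation p = 0.90). Its composition was compared as shares within each library, which do not depend on how a library is scaled as a whole. Ago3 held 85.3%, 84.8% and 90.9% of the sum in Bnc1tr/tr and 92.7%, 92.4% and 91.1% in WT, lower by 5.1 percentage points on average with the nearest libraries of the groups almost touching. Ago4 held 5.43%, 8.14% and 4.86% in Bnc1tr/tr and 1.38%, 1.30% and 2.01% in WT, a clear gap of 4.58 points between the means. The Ago1 share was 0.460% ± 0.211 and 0.0399% ± 0.0377, and every Bnc1tr/tr library was again above every WT library. For these 3 shares the exact two-sided permutation p was 0.10 and the adjusted p 0.133. After quantile normalization, which changes more than the scale of a library, the Ago3 difference was -1.8 points (exact permutation p = 0.4). Those of Ago4 and Ago1 were then 3.29 and 0.22 points (exact permutation p = 0.1 each). The Ago2 share was 6.41% ± 2.30 and 6.31% ± 0.547, with overlap (exact permutation p = 1.0). The log2 ratio of Ago2 over Dicer1, the genes of the endo-siRNA pathway, was -4.25 ± 0.37 in Bnc1tr/tr and -3.65 ± 0.17 in WT (SD, n = 3 each), lower in every Bnc1tr/tr library (exact permutation p = 0.10, adjusted p = 0.133).

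**Figure D3:**
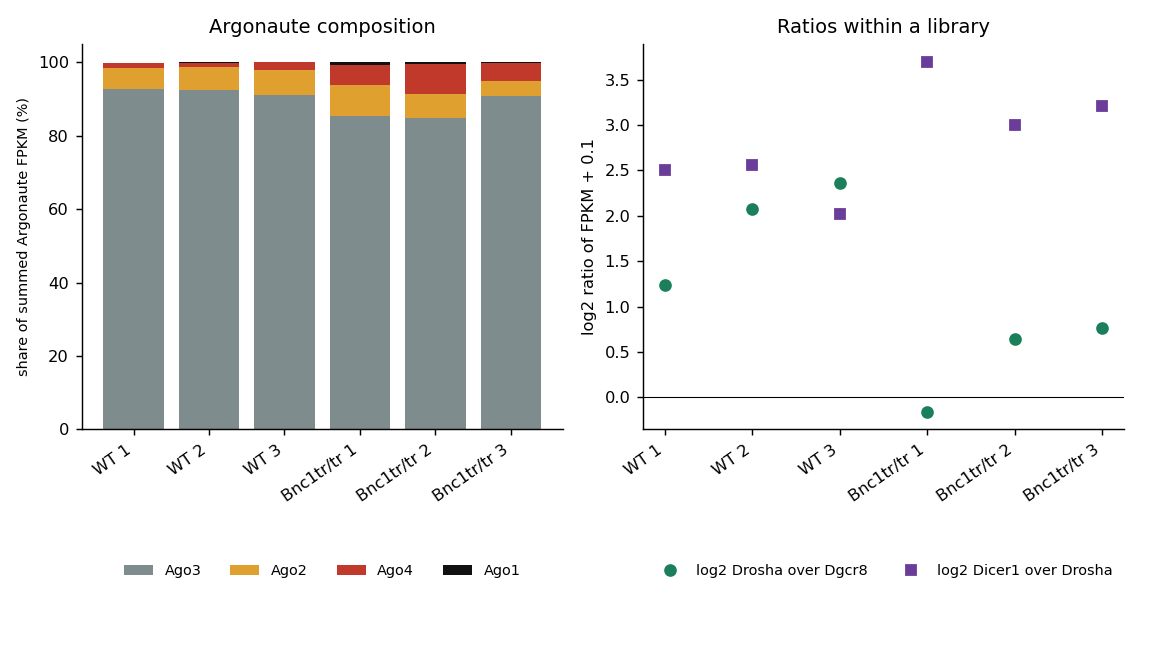
Left, share of each Argonaute gene in the summed Argonaute FPKM of a library in percent, as stacked bars from 0. Right, log2 ratio of FPKM + 0.1 of Drosha over Dgcr8 (circles) and Dicer1 over Drosha (squares) in each library. Ago4 holds 4.86% to 8.14% in Bnc1tr/tr and 1.30% to 2.01% in WT, and both ratios are separate between the groups.

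None of the PIWI pathway members passed the test. Piwil1 (NCBI Gene ID 57749, chr5:128736071-128755474), the MIWI gene, had 1.42, 1.03 and 1.67 FPKM in Bnc1tr/tr and 0.73, 1.63 and 1.55 in WT libraries, with overlap. Its log2 fold change was 0.06 (95% interval -0.42 to 0.54, limma adjusted p = 0.86) and below 0 after upper-quartile, median-ratio and quantile scaling. Mov10l1 (NCBI Gene ID 83456, chr15:88982891-89055152), the helicase gene that piRNA precursor processing needs, had 2.80, 1.01 and 1.94 FPKM in Bnc1tr/tr and 1.92, 0.96 and 3.25 in WT. Library 2 was the lowest of both groups, and the spread within a group exceeded the difference between groups, with a log2 fold change of -0.04 (95% interval -0.76 to 0.68, limma adjusted p = 0.94).

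Piwil2 (NCBI Gene ID 57746, chr14:70372477-70436898), the MILI gene, had 0.14, 0.16 and 0.06 FPKM in Bnc1tr/tr and 0.10, 0.04 and 0.07 in WT, about 3 to 13 fragments per library. It was under the filter, and without the filter its log2 fold change was 0.07 (limma adjusted p = 0.62), so no difference was detectable at this depth. The log2 ratio of Piwil2 over Piwil1 was -2.75 ± 0.68 in Bnc1tr/tr and -2.99 ± 0.83 in WT (SD, n = 3 each, exact permutation p = 0.80).

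The identity and depth of the libraries bear on these values. Bnc1 had 9.04, 6.51 and 5.83 FPKM in Bnc1tr/tr and 13.17, 12.54 and 16.23 in WT libraries (log2 fold change -0.89, standard error 0.20, limma adjusted p = 0.0090), so the transcript of the truncated allele was lower but present. Depth, estimated from the steps between low FPKM values, was 12.4 to 17.2 M fragments in Bnc1tr/tr and 15.1 to 21.4 M in WT libraries, and 15258 to 15736 genes against 13896 to 14576 were above 0 FPKM. All 14 oocyte markers were present in all libraries, Zp3, Gdf9 and Bmp15 at 717.7 FPKM or more. Of the 14, 4 (28.6%) were called, Mos and Dazl higher and Zp2 and Nlrp5 lower, against 31.8% of all tested genes. Zp3 was lower and Bmp15, Oosp1 and Kit higher in every Bnc1tr/tr library, without a call. Of the 14, 5 were higher and 3 lower in every Bnc1tr/tr library, where the groups were apart for 46.8% of all tested genes. Of 7 theca and stroma markers in the tables the summed level was 11.67 to 15.84 FPKM in Bnc1tr/tr and 2.80 to 3.90 in WT. Dcn, Cyp11a1, Pdgfra and Lum were higher in every Bnc1tr/tr library, Dcn at 6.11 against 1.62 FPKM (limma adjusted p = 0.00051) and Cyp11a1 at 5.63 against 1.26 (limma adjusted p = 0.0013), while Col1a1 was at 0.01 or less. Of 11 granulosa and cumulus markers the sum was 43.93 to 61.04 in Bnc1tr/tr and 22.89 to 40.91 in WT. Fshr at 5.25 against 0.35 FPKM (limma adjusted p = 0.00011) and Kitl at 2.46 against 1.14 (limma adjusted p = 0.018) were called higher, while Foxl2 was at 0 in all but WT library 1. Fshr passed the filter only through its Bnc1tr/tr values. Most of each sum was Cyp19a1, which overlapped between the groups and was not called (limma adjusted p = 0.1). Nr5a2 was higher in every Bnc1tr/tr library without a call (limma adjusted p = 0.14). Inhba, under the filter and not tested, had a higher mean in Bnc1tr/tr, with overlap. Inha, Gja1 and Hsd17b1 had lower means, at 0.693 against 3.42, 0.503 against 1.32 and 0.197 against 0.787 FPKM, with overlap. The means of Has2 and Lhcgr, near 0 in both groups, were lower too. Of 8 immune and endothelial markers the sum was 4.78 to 57.19 in Bnc1tr/tr and 9.01 to 12.95 in WT. In that list Lyz2 reached 5.81 and 47.97 FPKM in Bnc1tr/tr libraries 1 and 2 and was listed at 0 in the other 4. Kdr was higher in every Bnc1tr/tr library, at 0.53 to 1.54 against 0.07 to 0.12 FPKM, Pecam1 was called lower, at 4.01 against 9.11 (limma adjusted p = 0.0048), and Cdh5 was at 0.02 or less. These markers were named after their values were seen. In Bnc1tr/tr library 3 Lyz2 and Cd74 were listed at 0. That library still had Dcn at 4.93, Cyp11a1 at 5.29 and Fshr at 5.37 FPKM, above every WT library, and Pecam1 at 3.16, below every WT library. With it alone against WT, the log2 fold changes were 1.07 for Ago4, 0.66 for Dgcr8 and 0.60 for Dicer1. In that comparison 0 members were called, with a mutant arm of 1 library that has no spread of its own and is assumed to vary like WT, so the lost calls say nothing of these transcripts. The part of these transcripts in the differences between the genotypes was not tested.

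The partners that act with the members were read from lists of the pathway, each as a count beside the 31.8% of all tested genes called. Of 14 microRNA processing partners 12 were tested and 6 (50%) were called, 5 higher and 1 lower, with a median log2 fold change of 0.52. Tut7, a terminal uridylyltransferase that tails let-7 precursors and messenger RNAs, had 20.8 ± 2.15 FPKM in Bnc1tr/tr and 6.47 ± 0.970 in WT (log2 fold change 1.55, limma adjusted p = 0.00023). Lin28a, whose protein binds let-7 precursors and recruits the uridylyltransferases, had 4.87 ± 0.414 and 1.26 ± 0.399 FPKM (1.39, limma adjusted p = 0.00058). Dis3l2, the nuclease that degrades uridylated let-7 precursors, had 2.60 ± 0.261 and 0.730 ± 0.115 FPKM (1.06, limma adjusted p = 0.0012). Dis3l2 passed the filter only through its Bnc1tr/tr values, so the count and the median of this list support nothing by themselves. Without the filter the adjusted p of Dis3l2 by limma was 0.0015. Other genes of the list with like roles did not follow these 3. Tut4, the other uridylyltransferase gene, was under the filter at 0.107 ± 0.0153 and 0.217 ± 0.0833 FPKM, below WT in every Bnc1tr/tr library, and Lin28b had a log2 fold change of -0.03 (limma adjusted p = 0.95). Tut4 and Lin28b were named after their values were seen.

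Ddx17, a helicase of the Microprocessor, rose by a log2 fold change of 0.69 (limma adjusted p = 0.014), and Adar, an editing enzyme of double-stranded RNA, by 0.64 (limma adjusted p = 0.026). Ran, the GTPase that exportin 5 needs and a general transport gene, fell from 113 ± 17.8 FPKM in WT to 50.6 ± 6.5 in Bnc1tr/tr (SD, n = 3 each, log2 fold change -1.14, limma adjusted p = 0.0018). Ddx5, the other Microprocessor helicase and by its mean over the 6 libraries the most abundant tested partner not called, had 0.67 (limma adjusted p = 0.051). Tarbp2, which encodes the DICER1 partner TRBP, had -0.42 (limma adjusted p = 0.18) and Xpo5, the exportin 5 gene, had 0.39 (limma adjusted p = 0.12), and both were named for their roles after their values were seen.

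Of 20 genes of the RNA-induced silencing complex (RISC) and of P-bodies, the granules where silenced messages gather, 18 were tested and 6 (33.3%) were called, 4 higher and 2 lower, with a median log2 fold change of 0.21. Ddx6, a P-body helicase gene, rose by 1.1 (limma adjusted p = 0.035), Mov10, an RNA helicase gene, by 0.93 (limma adjusted p = 0.0037, with a WT mean under the filter), Dcp2, the decapping enzyme gene, by 0.83 (limma adjusted p = 0.0068) and Tnrc6b, a GW182 scaffold gene that joins Argonautes to deadenylation, by 0.65 (limma adjusted p = 0.029). Mov10 passed the filter only through its Bnc1tr/tr values, so the count and the median of this list support nothing by themselves. Without the filter the adjusted p of Mov10 by limma was 0.0067. Ddx6 varied within WT, from 1.42 to 5.63 FPKM. Its call was lost without any 1 of the Bnc1tr/tr libraries, with a pseudocount of 0.1 and without the filter. Trim71, itself a known let-7 target and an RNA-binding repressor, fell from 28.2 ± 5.5 FPKM in WT to 10.6 ± 1.42 in Bnc1tr/tr (SD, n = 3 each, log2 fold change -1.32, limma adjusted p = 0.0012). Tsnax, the gene of translin-associated factor X, fell by 0.76 on the log2 scale (limma adjusted p = 0.019). Hsp90aa1, the chaperone gene with the highest mean of the list, was not called (0.20, limma adjusted p = 0.42), and other genes hold 51.5% of its 31-base words.

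Of 22 piRNA pathway partners 20 were tested and 5 (25%) were called, 2 higher and 3 lower, with a median log2 fold change of -0.24. Piwil4, the gene of the nuclear PIWI protein MIWI2, had 1.99, 2.25 and 2.02 FPKM in the Bnc1tr/tr libraries and was listed at 0 in all 3 WT libraries. It passed the filter only through the Bnc1tr/tr values, so its place among the calls follows in part from the filter, and without the filter its adjusted p by limma was 0.00022. It was the PIWI gene with the highest mean in Bnc1tr/tr oocytes, and with any 1 Bnc1tr/tr library left out its mean fell under the filter, so that it was not tested there. Tdrd7 rose by 0.66 (limma adjusted p = 0.024). Tdrd9, Asz1 and Tdrd1, which act with PIWI proteins in the germ granules of the male germline, fell by 0.75 (limma adjusted p = 0.014), 0.62 (limma adjusted p = 0.015) and 0.60 (limma adjusted p = 0.020) on the log2 scale. Tdrd9, at 0.96 FPKM in Bnc1tr/tr and 2.26 in WT, passed the filter only through its WT values. Without the filter its adjusted p by limma was 0.02. Asz1 was abundant, at 99.4 ± 4.98 FPKM in Bnc1tr/tr and 154 ± 9.25 in WT. Gtsf1, a PIWI cofactor gene and the most abundant gene of the list, had -0.75 and was not called (limma adjusted p = 0.073).

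**Figure D4:**
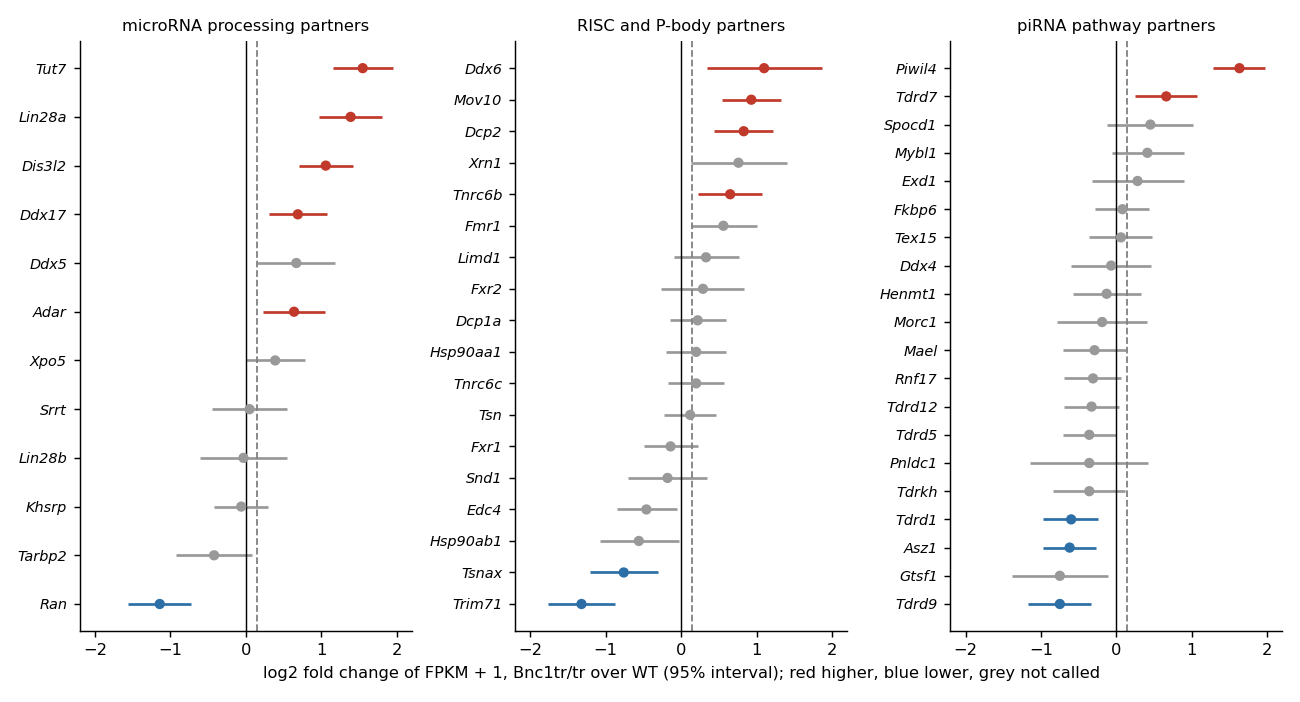
Log2 fold change of FPKM + 1, Bnc1tr/tr over WT, of the tested partners in 3 lists, with limma 95% intervals; red was called higher, blue lower, grey not called, and the dashed line is the median of all tested genes. Tut7, Lin28a and Dis3l2 head the microRNA processing list, Piwil4 heads the piRNA list, and Trim71 and Ran are at the bottom of theirs.

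In oocytes, endo-siRNAs are known to arise where a message pairs with an antisense transcript, from a pseudogene elsewhere or from an overlapping gene. Of 4 genes listed for such pairing, all tested, 1 was called. Pdzd11 fell by 0.62 on the log2 scale (limma adjusted p = 0.024), and 36.9% of its 31-base words are shared with other genes, nearly all with its overlapping neighbour Kif4. Kif4, a kinesin gene and the most abundant of those not called, had -0.37 (limma adjusted p = 0.18). All 4 log2 fold changes were below 0, with a median of -0.37, where 60.4% of all tested genes were above 0. The limma intervals of Kif4 (-0.81 to 0.07), Ppp4r1 (-1.01 to 0.39) and Rangap1 (-1.09 to 0.33) included 0, and their groups overlapped. Pdzd11 and Kif4 share words, so the 4 signs are not independent. The common sign was therefore not taken as a joint fall of these genes.

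Across the 3 partner lists, the endo-siRNA genes and the members, 21 genes were called. By list the share called ran from 25% to 50% of the tested genes, against 31.8% of all tested genes. Some of the called genes passed the filter only through the group where they were higher, so these shares support nothing by themselves. All 21 kept their sign in every alternative that tested them, which adds little, because the same libraries selected them. After median-ratio scaling 17 were called and after quantile normalization 13. The genes called in every alternative that tested them were Tut7, Lin28a and Trim71, beside Piwil4, which was not tested when a Bnc1tr/tr library was left out and adds no support here. Dicer1, Adar, Tnrc6b and Tdrd7 lost their call under both scalings, and Dgcr8, Ddx17, Ddx6 and Mov10 after quantile normalization.

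The genes whose level followed that of a member most closely were sought among 5283 genes averaging at least 10 FPKM, by Pearson correlation of log2(FPKM + 1) over the 6 libraries. For Dicer1, the most abundant member, these were Uvrag, a gene of autophagy and endosome traffic (r = 0.999), Ipmk, an inositol phosphate kinase gene (r = 0.999), and Znhit3, a zinc finger gene (r = 0.997). Uvrag had 43.07, 40.91 and 43.10 FPKM in Bnc1tr/tr and 25.62, 28.86 and 25.68 in WT libraries. For Ago4, the tested member with the largest change, these were Pnmt, an adrenaline synthesis gene (r = 0.997), the histone gene Hist1h4a (r = 0.997) and Idh3g, a mitochondrial isocitrate dehydrogenase gene (r = 0.996). Pnmt had 28.17, 51.33 and 34.52 FPKM in Bnc1tr/tr and 10.57, 7.50 and 9.56 in WT libraries, with library 2 the highest of the mutants and the lowest of WT, as for Ago4. With 6 points in 2 groups, a high correlation is shared by many genes that differ between the genotypes, and the points share library, depth and genotype.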

How the data were processed

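Polyadenylated RNA of 6 GV oocyte libraries was measured by Smart-seq2. The authors deposited 1 gene table per library in FPKM, rounded to 2 decimals, with no counts, so depth is an estimate from 934 genes with 1 annotated transcript and was used in no test. The submitters' processing notes name HISAT2 2.0.4, Bowtie2 2.2.5, RSEM 1.2.12 and GRCm38.p6, without roles. Smart-seq2 has no molecular identifiers or strand, and amplification can distort low values. Symbols turned to dates (25) were repaired by Gene ID.

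The genotypes were compared in limma 3.58.1 (R 4.3.3), with genotype as the only term. Alternatives were other pseudocounts, filters, fold thresholds and scalings, robust variances, a replicate block and leaving out each library. The pseudocount of 1 understates changes of low genes. Shares and ratios were compared by exact permutation over the 6 libraries. P-values measure the spread between these libraries, which the study calls biological replicates. Coordinates and promoter and hairpin sequences came from RefSeq GRCm38.p6, and transcript lengths and shared words from GENCODE.

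Named were all members, the called genes of each list and its most abundant gene not called, and the 3 genes most like Dicer1 and Ago4. The members and lists were chosen with earlier results of these data known.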

Additional observations from a re-analysis of the deposited data

How the results depend on the processing

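Limits are few libraries, an estimated depth, and FPKM, which is relative. A fit with a replicate block called 3733 genes in place of 3358, and 3 members, as without it; deviations of same-numbered libraries correlated at 0.278, -0.0344 and 0.124, and 3 of 6 libraries correlated best with their own number, so the numbers were not taken to pair the samples. The split of all calls was 2547 higher and 811 lower as deposited, 2145 and 1231 after upper-quartile scaling, 2033 and 1394 after median-ratio scaling, then 1637 and 1877 under quantile normalization. The calls over all genes numbered 2046 with a minimum mean of 5 FPKM and 863 with Bnc1tr/tr library 3 alone against WT, an alternative chosen after seeing the data, in which the lone library is assumed to vary like WT and calls are lost with the smaller number of samples.

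Of the 10 members, 3 were called, all higher, against 1 with a minimum mean of 5 FPKM, where fewer genes were tested, 1 after quantile normalization, 1 at an absolute log2 fold change over 1 and 0 with Bnc1tr/tr library 3 alone. Leaving out each library gave 1 to 3. The microRNA processing partners called numbered 6, against 3 with a minimum mean of 5 FPKM and 2 with library 3 alone, and 4 to 6 without each library. The RISC and P-body partners numbered 6, against 1 with library 3 alone and 2 at a log2 fold change over 1, and 3 to 6 without each library. The piRNA partners numbered 5, against 2 with a minimum mean of 5 FPKM, 0 with library 3 alone and 1 at a log2 fold change over 1, and 1 to 6 without each library. The endo-siRNA genes numbered 1, against 2 after median-ratio scaling, 2 when quantiles were matched by normalization, 0 with library 3 alone and 0 at a log2 fold change over 1, and 0 to 3 without each library.

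Signs turned only for values that did not pass the test. Without each library in turn, the log2 fold change ran from -0.13 to 0.13 for Ago2, from -0.21 to 0.048 for Ago3, from -0.14 to 0.17 for Piwil1 and from -0.32 to 0.24 for Mov10l1. With Bnc1tr/tr library 3 alone it was 0.20 for Ago3 and 0.021 for Mov10l1. Piwil1 was at -0.027 after upper-quartile scaling, -0.051 after median-ratio scaling and -0.49 with quantiles normalized. The difference in the Ago2 share was -1.71 percentage points after quantile normalization and -0.982 to 1.31 without each library, and that in the log2 ratio of Piwil2 over Piwil1 was -0.0841 to 0.703 without each library. The cause of these turns was not tested.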
